A study of Mus musculus with 30 samples.

Results

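Macrophages that lack the TLR4 adaptor TRAM were compared with wild-type macrophages in how each gene responded to 6 h of lipopolysaccharide (LPS). The comparison used 12 of the 30 libraries of the study, 3 in each of 4 groups. For every gene it took the LPS response of the mutant cells minus that of the wild-type cells, which is called the genotype difference below. The members are the 5205 of 15119 tested genes that changed at least 2-fold with LPS in wild-type cells, sorted by what became of that change in the mutant.

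The cells were bone marrow-derived macrophages, primary cells grown from the marrow of C57BL/6J mice in L929-conditioned medium, a source of the growth factor M-CSF. The wild-type groups (WT) carry an intact Ticam2 gene, and the other groups come from Ticam2-/- mice (KO). The labels name 3 WT and 3 KO mice as the replicates. As worded, libraries of different treatments within a genotype then share mice, but which ones do is not stated, and the tests treat all libraries as independent. The untreated groups had no ligand, and the LPS groups received 10 ng/mL LPS for 6 h. The sources used here do not give the design of the Ticam2 allele or the sex and age of the mice. RNA came from the whole culture, so a response in fewer cells and a smaller response per cell cannot be told apart.

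LPS, a cell wall component of Gram-negative bacteria, is sensed by TLR4 together with CD14 and MD-2. At the plasma membrane TLR4 signals through TIRAP and MyD88 to NF-kB and MAP kinases, which drive inflammatory cytokine genes. After uptake into endosomes the receptor recruits TRAM, the product of Ticam2, which bridges it to TRIF. TRIF activates the kinase TBK1 and the transcription factor IRF3, which together with NF-kB turn on interferon beta. Secreted interferon beta then acts back on the macrophages through its receptor and induces a large set of antiviral genes.

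The 12 libraries held 10641070 to 13521660 counts each. Ticam2 (ENSMUSG00000056130, chromosome 18, 46557291 to 46574533 on GRCm38, protein-coding) had 130, 145 and 120 counts in untreated WT against 10, 9 and 5 in untreated KO. With LPS the WT libraries held 168, 194 and 196 counts and the KO libraries 26, 19 and 14, so no KO library reached a WT library. All 16 macrophage markers had counts in every group. Their summed level, as CPM (counts per 1000000 of all counts, here without TMM scaling), was 35200 to 36800 in untreated WT, 18600 to 19900 with LPS in WT, 33400 to 33700 in untreated KO and 28000 to 29500 with LPS in KO. With TMM scaling, as used further below, the median log2 response of these markers to LPS was -0.2 in WT and -0.28 in KO. Red cell transcripts were present throughout, at 5600 to 7730 CPM over 8 markers, with Klf1 at 0 in WT with LPS. In all 4 groups the summed markers of neutrophils stayed at or under 21.2 CPM, those of B cells at or under 4.16, and those of dendritic, T, NK and mast cells at or under 2.6.

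Levels from here on are CPM on TMM-normalised library sizes, and responses as log2 fold changes ± standard error (n = 3 per group). Calls rest on quasi-likelihood F tests in edgeR, adjusted by Benjamini-Hochberg over all 15119 genes at 0.05. A genotype difference was called for 7641 genes, 50.5% of those tested. It was higher in KO for 4082 genes (27%) and lower for 3559 (23.5%). Of these, 1610 and 1470 differed at least 2-fold. The TMM factors were 0.691 to 0.71 in WT with LPS but 0.987 to 1.15 in the remaining groups. When total counts set the scale, the median gene had a genotype difference of 0.52 and 83.7% of the called genes were higher (8452 against 1647). With the relative log expression factors 46.2% were higher (3560 against 4141).

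In WT, 2538 genes rose at least 2-fold (16.8% of those tested) and 2667 fell (17.6%). In KO, 1008 rose (6.67%) and 631 fell (4.17%). A WT response was counted as lost where the genotype difference was called against it and KO held under 25% of the log2 response, and as blunted where KO held more. It was counted as kept where the genotype difference was not called and the KO response was, and as stronger where the genotype difference was called in the direction of the WT response. The rest, with neither called, were unresolved. Of the 2538 induced genes, 906 were lost (35.7%), 910 blunted (35.9%), 411 kept (16.2%), 36 stronger (1.42%) and 275 unresolved. Of the 2667 lowered genes, 800 were lost (30%), 1304 blunted (48.9%), 367 kept (13.8%), 1 stronger and 195 unresolved. Scaled by total counts, 489 induced genes were lost, 426 blunted, 300 kept and 74 stronger, and of the lowered genes 1823 were lost, 2908 blunted, 456 kept and 1 stronger. Since the classes were cut on these fits, their sizes describe the data and are not a test.

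**Figure D1:**
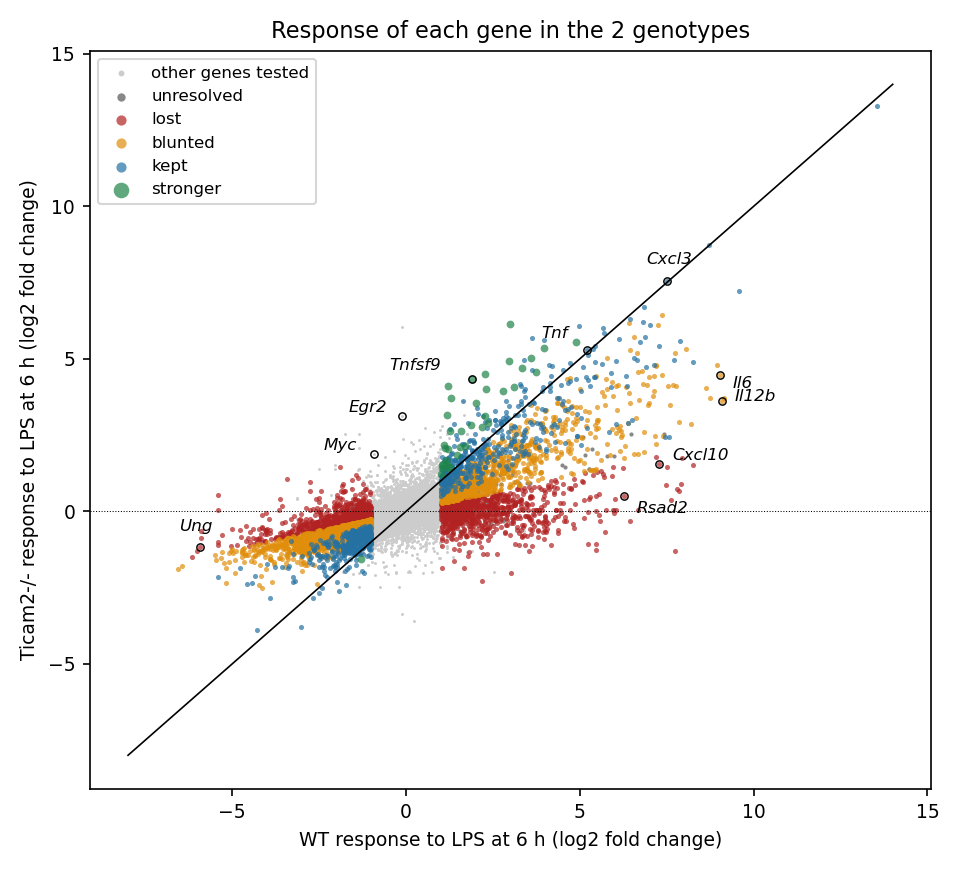
Log2 response to 6 h of LPS in WT (horizontal axis) against KO (vertical axis), 1 point per tested gene, coloured by class; the solid line marks equal responses and the dotted line no KO response. Induced genes spread from the line of equal responses (Tnf, Cxcl3) down to the dotted line (Rsad2), and genes above the line, such as Tnfsf9, are few.

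The median lost gene rose by a log2 fold change of 1.84 in WT and 0.04 in KO. For the median blunted gene the values were 2.09 and 1.00. Among the lost genes 170 fell in KO by a called amount, and 206 still rose by a called amount. Usb1 lay just inside the lost class, with 0.2497 of its WT response left, and Dnaja2 just outside, with 0.2508. At the 2-fold limit, Chac2 was counted as induced with a log2 fold change of 1.0001 and Ppp1r11 was not, with 0.9984. A kept response was not shown to be equal, since the 95% interval of the genotype difference lay within 0.5 of 0 on the log2 scale for 80 of the 411 kept induced genes and 18 of the 367 kept lowered genes. The kept induced genes had a median level of 0.61 log2 CPM over the 12 libraries, against 3.95 for the lost and 5.12 for the blunted. Of the kept, 217 of 411 were protein-coding, against 755 of 906 lost and 808 of 910 blunted.

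Class also varied with the size of the WT response. Lost genes made up 37.3% of those induced 2- to 4-fold, 37.2% of those induced 4- to 16-fold and 25.9% of those induced 16-fold or more. Kept genes made up 13.6%, 17.4% and 23.5%. The order ran the other way for kept lowered genes, at 16.6%, 8.78% and 5.56%. These shares are a description, and kept means only that no genotype difference was called, in a class with the low median level given above.

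**Figure D2:**
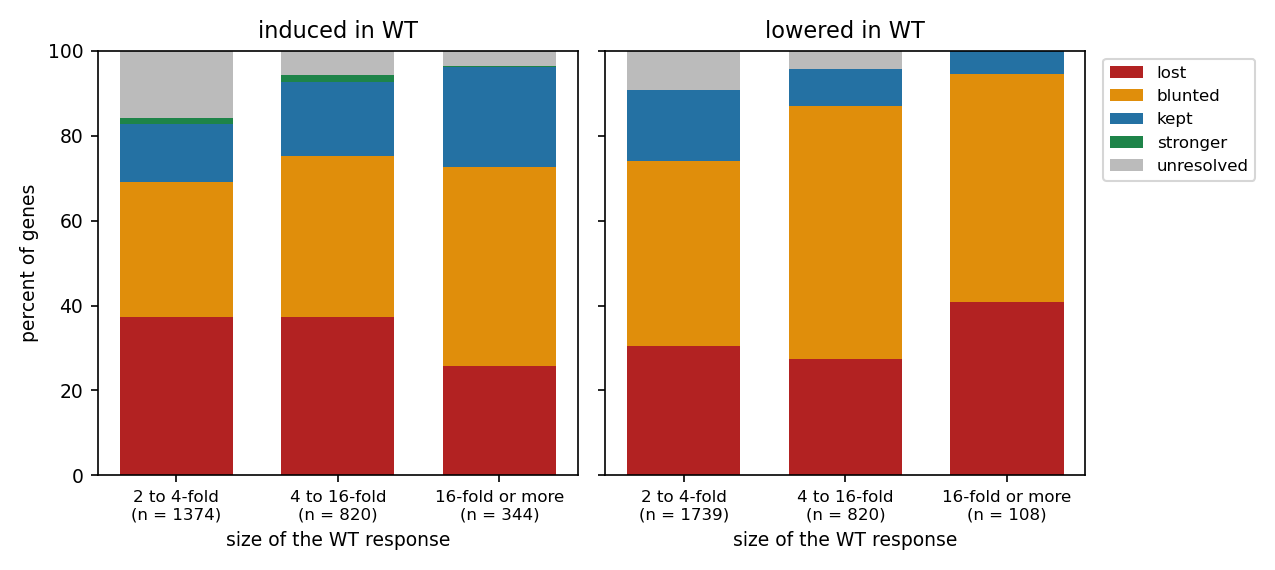
Share of genes in each class (vertical axis, percent) by the size of the WT response (horizontal axis), for genes induced (left) and lowered (right) in WT, with the number of genes under each bar. Among induced genes the kept share grows from 13.6% to 23.5% and among lowered genes it shrinks from 16.6% to 5.56%.

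Promoter sequences are shown for 3 interferon-linked genes that were lost (Rsad2, Cxcl10, Ifit1), for the blunted Il6 and for the kept Cxcl3, to set these classes side by side. Each is the 250 bases before the annotated start, from RefSeq on GRCm38.p6, read 5′ to 3′ on the strand of the gene. Capitals mark matches, on either strand, to an interferon response element core (GAAA, any 2 bases, GAAA), a kB motif (GGG, any 3 bases, TTCC) or an AP-1 motif (TGANTCA). Rsad2 lies on the minus strand (chr12:26456453-26456702), as does Cxcl10 (chr5:92348890-92349139), and Ifit1 (chr19:34640639-34640888), Il6 (chr5:30012864-30013113) and Cxcl3 (chr5:90785851-90786100) on the plus strand.
Rsad2: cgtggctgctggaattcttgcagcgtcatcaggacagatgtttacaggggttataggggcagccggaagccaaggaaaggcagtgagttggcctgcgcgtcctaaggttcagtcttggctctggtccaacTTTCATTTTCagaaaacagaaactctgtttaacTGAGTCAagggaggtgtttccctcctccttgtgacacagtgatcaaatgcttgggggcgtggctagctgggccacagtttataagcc
Cxcl10: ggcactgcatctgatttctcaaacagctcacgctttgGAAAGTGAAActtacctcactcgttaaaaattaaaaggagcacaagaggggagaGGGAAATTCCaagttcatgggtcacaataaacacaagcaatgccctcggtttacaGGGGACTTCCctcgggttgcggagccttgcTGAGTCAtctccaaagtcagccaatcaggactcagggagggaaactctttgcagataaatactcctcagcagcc
Ifit1: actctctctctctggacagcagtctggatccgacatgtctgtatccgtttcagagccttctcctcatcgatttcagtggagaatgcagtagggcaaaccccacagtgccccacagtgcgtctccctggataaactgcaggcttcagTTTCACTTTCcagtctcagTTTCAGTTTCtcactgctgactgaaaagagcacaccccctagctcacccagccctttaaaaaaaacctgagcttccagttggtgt
Il6: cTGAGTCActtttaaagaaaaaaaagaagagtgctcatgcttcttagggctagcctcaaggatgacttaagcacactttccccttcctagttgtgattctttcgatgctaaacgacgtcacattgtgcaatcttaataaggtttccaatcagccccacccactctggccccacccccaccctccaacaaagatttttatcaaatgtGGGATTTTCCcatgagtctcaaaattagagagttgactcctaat
Cxcl3: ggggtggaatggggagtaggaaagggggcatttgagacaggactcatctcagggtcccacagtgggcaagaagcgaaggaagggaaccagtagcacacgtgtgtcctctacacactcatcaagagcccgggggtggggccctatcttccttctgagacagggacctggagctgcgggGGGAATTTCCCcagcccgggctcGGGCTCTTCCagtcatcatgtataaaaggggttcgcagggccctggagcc
In Rsad2 the interferon core lay at -120 to -111 from the start, in Ifit1 at -104 to -95 and -85 to -76, and in Cxcl10 at -213 to -204. Cxcl10 also held kB matches at -159 to -150 and -104 to -95. Il6 held a kB match at -44 to -35. AP-1 matches lay at -87 to -81 in Rsad2, at -74 to -68 in Cxcl10 and at -249 to -243 in Il6. Cxcl3 held 3 kB matches, of which those starting at -73 and -72 overlap, and neither of the other motifs.

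Over all RefSeq windows of 300 bases (250 before and 50 after the start), the interferon core stood in 3.44%, and in 3.42% of the windows of tested genes. Its share was 11.5% for induced lost genes, 4.82% for blunted, 3.8% for kept and 0 of 37 windows for stronger genes. The kB motif stood in 6.43% of the windows of tested genes, 6.24% for lost, 9.53% for blunted, 5.49% for kept and 13.5% (5 of 37) for stronger. Windows were found for 627 of the 906 lost genes, 649 of the 910 blunted, 185 of the 411 kept and 28 of the 36 stronger, and a gene can have several. A match is a string of letters and was not tested for binding.

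The genes that IRF3 and interferon beta turn on lost nearly all of their response. All 14 listed IRF3 targets rose in WT, with a median log2 fold change of 5.02, against 0.61 in KO. KO had the smaller response for 13 of the 14, with 11 lost (among them Ifit2, Oasl1 and Isg20), Ccl5 and Cxcl9 blunted, and interferon beta itself not called. Of the 44 tested interferon-stimulated genes all 44 had a lower response, against 23.5% of all tested genes, and 43 were lost. The remaining gene, Irf9, rose less than 2-fold in WT. The median member of that list changed by 2.44 in WT and -0.05 in KO, and in KO 13 of the 44 fell and 10 rose by a called amount.

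Cxcl10, a chemokine that draws T cells (chromosome 5, 92346638 to 92348889), stood at 93.2, 91.2 and 93.5 CPM in untreated WT and 57.1, 56.3 and 58.0 in untreated KO. With LPS it reached 13900, 14552 and 14947 CPM in WT and 162, 168 and 171 in KO. Every KO library with LPS was thus above every untreated one and far below every WT library with LPS. The log2 responses were 7.29 ± 0.05 and 1.55 ± 0.04, a genotype difference of -5.74 ± 0.06 (adjusted p = 1.6e-55).
Rsad2, which encodes the antiviral enzyme viperin, went from 87.9, 85.4 and 84.0 CPM to 6819, 6606 and 6451 in WT, and from 61.7, 55.8 and 57.0 to 84.6, 78.9 and 83.2 in KO. Its genotype difference was -5.77 ± 0.07. Cmpk2, a nucleotide kinase gene next to it, did not change in KO by a called amount (-0.13 ± 0.06 against 5.55 ± 0.06 in WT).

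Ifit1 and Isg15, both antiviral effectors, kept a small part of their rise. Ifit1 rose to 2306, 2409 and 2208 CPM in WT and to 94.9, 92.6 and 96.5 in KO, from 53.2, 58.0 and 56.5, and its genotype difference was -3.92 ± 0.06. For Isg15, a ubiquitin-like modifier, it was -3.94 ± 0.06, and for the antiviral GTPase Mx1 -4.85 ± 0.14.
Some other sensors and regulators fell below their own untreated level in KO. Irf7, the factor that amplifies interferon production, went from 121, 123 and 118 CPM to 97.2, 98.9 and 99.5 in KO, while in WT it rose from 167, 160 and 159 to 862, 937 and 930. Ifi204, a DNA sensor of the Ifi200 family, did the same, with a log2 response of -0.39 ± 0.05 in KO and 3.01 ± 0.04 in WT. The RNA sensor Ifih1 did not change in KO by a called amount (0.05 ± 0.06, against 3.91 ± 0.05 in WT).

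All 15 tested interferon-inducible GTPases, which attack the vacuoles of intracellular pathogens, had a lower response, against 23.5% of all tested genes. Of the 15, 11 were lost, 3 were blunted (Gbp2, Gbp5 and Gbp6) and Gbp8 had no called 2-fold rise in WT. Ifi47 (log2 response 3.66 ± 0.05 in WT, 0.03 ± 0.05 in KO) and Igtp (3.72 ± 0.05 and 0.05 ± 0.07) did not move in KO by a called amount. Iigp1 stood at 252, 267 and 230 CPM with LPS in WT and 3.21, 2.07 and 2.33 in KO, where the untreated libraries held 2.90, 2.46 and 2.49. Gbp2 kept more, rising from 11.3, 9.66 and 11.7 CPM to 51.5, 50.2 and 47.8 in KO.
Calhm6, a channel gene named for its size of change, was also lost (6.02 ± 0.07 in WT, 0.41 ± 0.10 in KO).

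Before any ligand was added, 36 of the 44 interferon-stimulated genes and 11 of the 14 IRF3 targets were lower in KO than in WT, and 0 were higher, where 7.47% of all tested genes were lower and 5.97% higher. These untreated libraries also enter the genotype difference, so both facts are given side by side. The fall in the baseline was small beside the lost response, as for Cxcl10 (-0.70 ± 0.04 untreated).

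Lost genes also lay side by side on chromosomes. Of the 852 lost induced genes with a position, counted in 566 windows of 1000000 bases, the fullest window (chr1:173000001-174000000) held 12, of 14 tested genes there. These were Aim2, Cadm3, Mndal and Ifi genes such as Ifi204. The next (chr7:104000001-105000000) held 9 of 11, mostly Trim genes such as Trim30a and Trim34a. Windows with 6 lost genes each held the Ifit genes (chr19:34000001-35000000, 15 tested), the Oas genes (chr5:120000001-121000000, 15 tested) and the Phf11 genes (chr14:59000001-60000000, 9 tested). Further ones held Irgm1 with Tgtp1 (chr11:48000001-49000000, 11 tested) and several Sp genes (chr1:85000001-86000000, 10 tested). In another (chr1:171000001-172000000) the 6 lost genes, of 35 tested, shared no name stem. Over all tested genes, 906 of 15119 were induced and lost. Close copies within these families can share reads, so the split of counts among them is uncertain.

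The machinery of MHC class I presentation also lost most of its response. All 16 tested members had a lower response, against 23.5% of all tested genes. Of the 16, 9 were lost and 3 blunted, and the median log2 response was 1.53 in WT and 0.14 in KO. Tap1, a subunit of the peptide transporter, went from 84.7, 85.7 and 85.1 CPM to 683, 698 and 725 in WT. In KO it went from 73.6, 71.2 and 72.9 to 62.8, 61.7 and 64.3, so it fell slightly (-0.20 ± 0.05). Psmb9, an immunoproteasome subunit, fell further in KO (-0.58 ± 0.05) while it rose in WT (1.67 ± 0.05). Psmb10, a sister subunit, held 14.1% of its WT response and Tap2 25.5%.
Co-stimulatory genes were split. Of 11, 8 had a lower response, against 23.5% of all tested genes, with Cd86, Il15 and Il15ra lost and 5 blunted. The other 3 were kept (Icosl, Cd83 and Fas) and became higher with total counts. Il15, a cytokine for NK and memory T cells, reached 619, 632 and 675 CPM in WT and 22.3, 26.1 and 28.3 in KO, below the untreated 34.5, 33.3 and 33.6. Cd40, the receptor for T cell help, rose in KO from 8.79, 7.76 and 7.17 CPM to 119, 127 and 120, and in WT from 9.92, 9.43 and 9.81 to 1300, 1413 and 1380. Cd274, which encodes PD-L1, had a genotype difference of -3.30 ± 0.13.

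**Figure D3:**
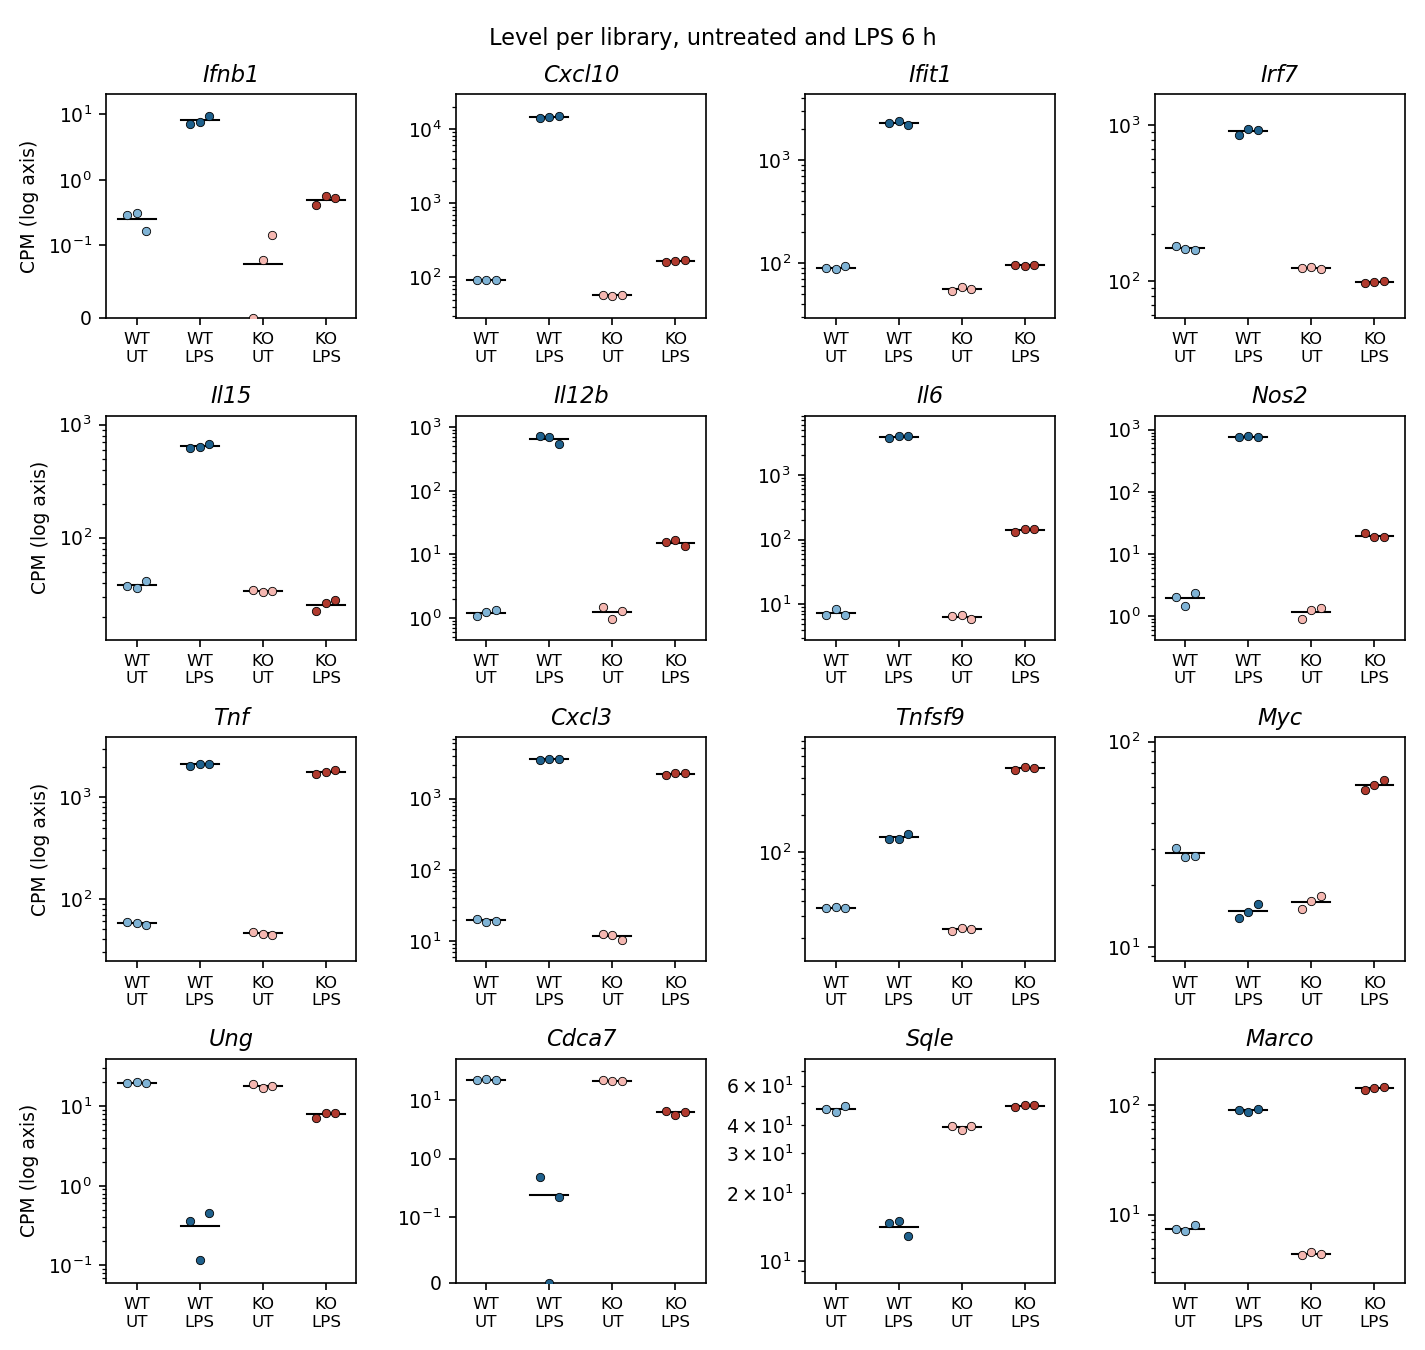
Level per library (vertical axis, CPM on a log axis, linear near 0 for Ifnb1 and Cdca7) of 16 genes in untreated and LPS 6 h libraries of WT and KO; points are the 3 libraries of a group and bars their mean. Cxcl10, Ifit1, Irf7 and Il15 stay near or below their untreated level or far under WT in KO, Il12b, Il6 and Nos2 rise part of the way, and Tnf (1676 to 1859 CPM in KO with LPS, 2047 to 2138 in WT) and Cxcl3 (2120 to 2312 and 3468 to 3632) lie below WT by less.

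Secondary cytokines and effectors, which need new protein or chromatin opening before they are transcribed, rose in KO but much less. All 21 rose in WT (median 6.65) and 20 in KO (median 3.72). In 20 of the 21 the genotype difference was lower, against 23.5% of all tested genes, with 18 blunted and Il10 and Il19 lost. It was higher for the scavenger receptor gene Marco.
Il6 (chromosome 5, 30013114 to 30019981), whose promoter is printed above, held 6.99, 8.43 and 6.90 CPM in untreated WT and 6.61, 6.81 and 5.97 in untreated KO. With LPS it reached 3709, 3954 and 3974 CPM in WT and 131, 148 and 149 in KO. The groups did not overlap, and the log2 responses were 9.02 ± 0.07 and 4.46 ± 0.07, a genotype difference of -4.56 ± 0.13 (adjusted p = 4.8e-35).
Il12b, the p40 chain of IL-12 and IL-23 (chromosome 11, 44400063 to 44414033), reached 732, 716 and 555 CPM in WT and 15.9, 16.6 and 13.4 in KO, from 1.07, 1.23 and 1.33 untreated in WT and 1.45, 0.950 and 1.28 in KO. Its genotype difference was -5.48 ± 0.51 (adjusted p = 4.3e-10). Il27 (-5.35 ± 0.20), the pattern recognition protein gene Ptx3 (-5.43 ± 0.59) and the endothelin gene Edn1 (-5.03 ± 0.57) were as large. Such wide standard errors go with untreated levels under 1.5 CPM for Il12b, Ptx3 and Edn1.

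Nos2, the inducible nitric oxide synthase, rose from 2.07, 1.46 and 2.33 CPM to 776, 798 and 751 in WT and from 0.887, 1.27 and 1.35 to 21.4, 18.5 and 18.5 in KO. The matrix protease Mmp13 (-3.42 ± 0.10) was blunted likewise. Il10, the anti-inflammatory cytokine, went from 2.00, 2.45 and 2.00 CPM to 111, 108 and 112 in WT but only from 1.37, 1.90 and 1.56 to 4.12, 3.74 and 3.60 in KO.
Acod1, the itaconate-producing enzyme, shows how fold and level can part. It kept 87.1% of its log2 response (5.04 ± 0.05 against 5.79 ± 0.05), yet stood at 973, 949 and 987 CPM in KO and 4375, 4557 and 4394 in WT with LPS. Its untreated level was already lower in KO, at 31.9, 28.2 and 28.3 CPM against 79.1, 80.01 and 82.0.

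Early inflammatory genes, direct targets of NF-kB, still rose in KO, most of them by less than in WT. All 17 listed cytokines and chemokines rose in both genotypes, by a median of 6.05 in WT and 4.61 in KO. The genotype difference was lower for 12 of the 17, against 23.5% of all tested genes. These 12 were all blunted, and the difference was not called for 4 (Tnf, Cxcl3, Lif and Csf2) and higher for Tnfsf9. Scaled by total counts it was lower for 10 and higher for 5. Their median retained share of the log2 response was 0.688, against 0.467 for the secondary genes and -0.034 for the interferon-stimulated genes.
Tnf (chromosome 17, 35199381 to 35202007) rose from 58.7, 58.1 and 54.9 CPM to 2047, 2133 and 2138 in WT and from 47.5, 45.4 and 44.4 to 1676, 1775 and 1859 in KO. The levels with LPS did not overlap, but the responses were close, 5.20 ± 0.05 and 5.27 ± 0.05. The genotype difference was 0.07 ± 0.06 (edgeR adjusted p = 0.33, 95% interval -0.05 to 0.20). With total counts Tnf and Cxcl3 became higher, by 0.58 and 0.55.

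Cxcl3, a neutrophil chemokine with the printed kB matches, rose from 20.4, 18.9 and 19.3 CPM to 3468, 3615 and 3632 in WT and from 12.6, 12.4 and 10.5 to 2120, 2312 and 2265 in KO (0.05 ± 0.09, interval -0.13 to 0.24). Its neighbour Cxcl2 was lower by -0.23 ± 0.06 and turned to 0.28 with total counts. Cxcl1, of the same family, was lower by -0.85 ± 0.13.
Other members lost more. Il1b, the precursor of interleukin 1 beta, reached 13987, 14712 and 14277 CPM in WT and 1593, 1652 and 1762 in KO (-2.56 ± 0.06). Il1a stood at 4843, 5165 and 5346 CPM against 243, 258 and 256, which with -4.16 ± 0.10 was the largest called difference among the 17. The monocyte-attracting chemokines Ccl3 (-1.95 ± 0.06) and Ccl4 (-2.58 ± 0.06) and the prostaglandin synthase Ptgs2 (-2.42 ± 0.09) lay between.

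NF-kB subunits and feedback inhibitors were weakened in nearly all cases, and none of the 20 with a 2-fold rise in WT was lost. Of all 21, 19 had a lower response, against 23.5% of all tested genes. Among the 20, 18 were blunted, Nfkbiz was kept and Nfkbid was stronger. The remaining member rose less than 2-fold in WT and fell in KO by a called amount. The median response of the list was 3.31 in WT and 2.15 in KO. With total counts 15 were lower and 3 higher. Nfkb1 rose from 110, 102 and 103 CPM to 934, 1021 and 986 in WT and from 90.8, 96.5 and 101 to 306, 304 and 308 in KO. Nfkb2 (-1.68 ± 0.07) and Zfp36, which destabilises cytokine transcripts (-1.55 ± 0.06), had differences of like size. Tnfaip3, the A20 inhibitor, had -1.03 ± 0.08 and Socs3, an inhibitor of cytokine receptor signalling, -0.93 ± 0.10.
Nfkbia, the IkB alpha gene, kept 96.6% of its response. Its difference of -0.12 ± 0.05 just passed the test (adjusted p = 0.048), did not pass without any 1 of 5 libraries (LPS KO replicate 1, untreated KO replicates 1 and 2, untreated WT replicates 2 and 3), and became 0.38 with total counts.

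The receptor and adaptor genes themselves were blunted more often than lost. Of 17 tested, 10 had a lower response and 5 a higher one, against 23.5% and 27% of all tested genes, which with total counts became 4 and 7, and 0 were lost. Cd14, the co-receptor that hands LPS to TLR4, rose from 1147, 1111 and 1130 CPM to 7084, 7770 and 7554 in WT and from 945, 1025 and 974 to 3042, 3321 and 3273 in KO (-1.01 ± 0.06). Myd88 (-1.43 ± 0.07), the kinase-like Irak2 (-0.98 ± 0.07) and Tbk1 (-1.10 ± 0.08) were blunted too. Tlr4, which fell in WT from 76.2, 79.1 and 71.5 CPM to 34.2, 36.0 and 34.2, fell less in KO, to 49.7, 51.5 and 49.2. Ticam1, which encodes TRIF, was not called (-0.11 ± 0.11) and became 0.39 with total counts.

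Interferon beta fell into the kept class although its level was far lower in KO. Ifnb1 had 4, 4 and 2 counts in untreated WT and 58, 66 and 85 with LPS, against 0, 1 and 2 and then 5, 7 and 7 counts in KO. No KO library with LPS reached a WT one, and KO was lower than WT with LPS by -3.99 ± 0.24 (edgeR adjusted p = 3e-21). The genotype difference was -2.44 ± 1.16 (adjusted p = 0.084, 95% interval -4.77 to -0.10), which rests on 3 counts in the untreated KO libraries. DESeq2 gave -2.37 with an adjusted p of 0.046, and without the first untreated KO library edgeR gave -2.90 (0.037). Lif and Csf2, also kept, had wide intervals too (-3.61 to 1.78 and -2.02 to 1.80), so their classes say little.
The other kept genes with the largest WT responses were Cd38, an enzyme that consumes NAD (log2 response 6.85 ± 0.12 in WT and 6.70 ± 0.19 in KO, interval of the difference -1.82 to 1.53), Lad1 (6.11 ± 0.11 and 5.66 ± 0.14) and the ferritin pseudogenes Fth-ps2 and Fth-ps3. Cd38 reached 125, 130 and 122 CPM in WT and 29.6, 32.0 and 31.2 in KO. Fth-ps2 had 0 counts in all 6 untreated libraries and 151 to 209 CPM in the 6 with LPS. The interval of its difference ran from -1021.01 to 1020.47, so its class says nothing about an equal response. Reads of such pseudogenes cannot be told from those of their parent gene with certainty.

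**Figure D4:**
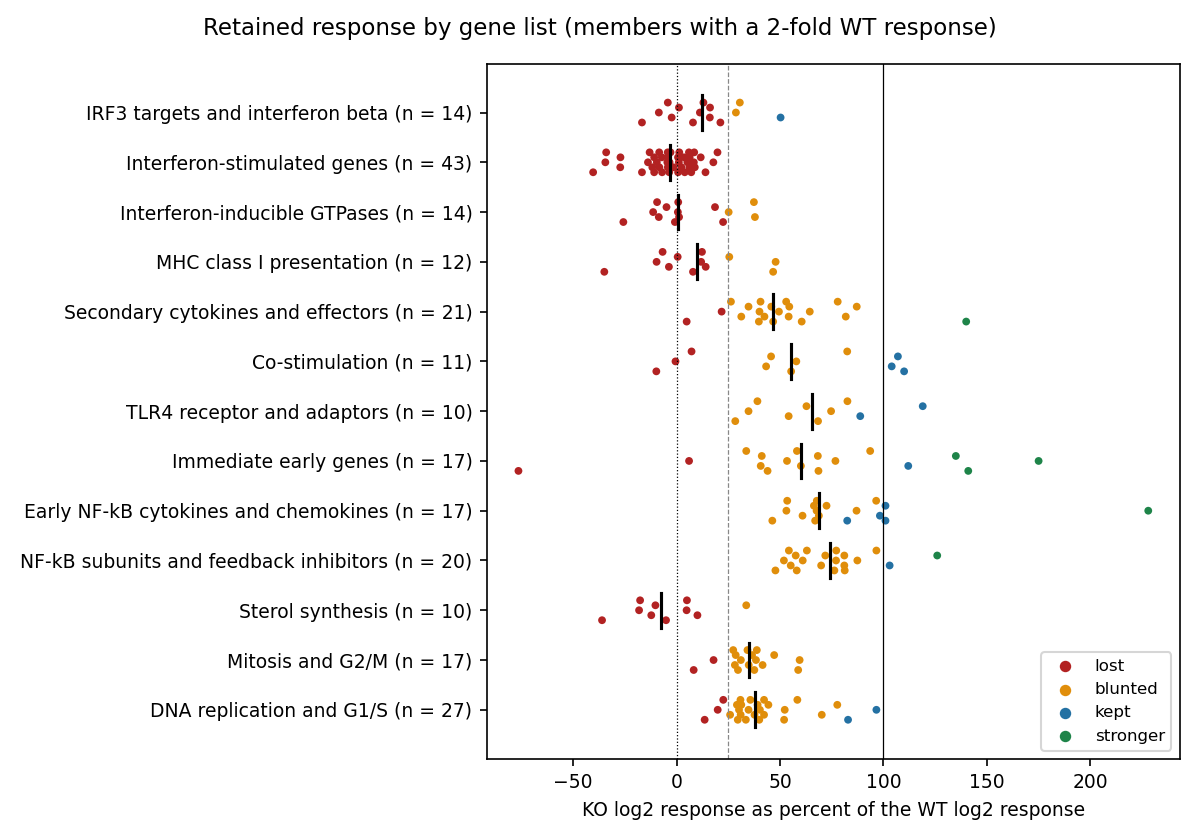
KO log2 response as a percent of the WT log2 response (horizontal axis) for members of 13 gene lists with a 2-fold WT response; each point is a gene coloured by class, the thick bar is the list median, and lines mark no response, the 25 percent limit of the lost class and an equal response. The medians lie near 0 for interferon-stimulated genes, GTPases and sterol synthesis and farthest right for the early NF-kB cytokines and the NF-kB subunits. For induced members alone the median shares are 0.741 for the NF-kB subunits and 0.688 for the early cytokines. They are nearly the same for the TLR4 receptor and adaptors (0.684) and the immediate early genes (0.683).

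Few responses were stronger in KO. The 36 stronger induced genes were 1.42% of those induced, and their median response was 1.63 in WT and 2.86 in KO. In untreated cells 18 of the 36 were already lower in KO (50%) and 1 higher, against 7.47% and 5.97% of all tested genes. Their median KO minus WT log2 difference there was -0.53, and these untreated libraries also enter the genotype difference. Tnfsf9, the ligand of the T cell receptor 4-1BB (chromosome 17, 57105325 to 57107757), rose from 34.97, 36.0 and 35.1 CPM to 128, 129 and 140 in WT and from 22.7, 24.3 and 23.7 to 463, 492 and 486 in KO. All KO libraries with LPS were above all WT ones, a genotype difference of 2.44 ± 0.08 (adjusted p = 5.3e-32).
The survival kinase gene Pim2 reached 6.10, 7.50 and 6.20 CPM in WT and 33.7, 35.7 and 35.9 in KO (2.42 ± 0.24). Slc13a3, a carrier of dicarboxylates, had 1.98 ± 0.25. Marco reached 90.5, 86.4 and 92.2 CPM in WT and 135, 144 and 147 in KO (1.43 ± 0.14). Maff, a small Maf transcription factor, had 1.38 ± 0.26. The KO minus WT log2 difference in untreated cells was -0.77 ± 0.13 for Marco, -0.94 ± 0.25 for Maff and -0.01 ± 0.20 for Pim2. With LPS it was 0.66 ± 0.05, 0.44 ± 0.08 and 2.41 ± 0.11. The genotype difference of all 5 genes (Tnfsf9, Pim2, Slc13a3, Marco and Maff) was also higher with total counts and with the relative log expression factors.

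A further 131 genes responded at least 2-fold in KO but not in WT, or in the opposite direction, 75 upward and 56 downward. Of these, 38 moved against a called WT response, 48 had no called WT response and 45 a smaller one in the same direction. Egr2, a zinc finger factor of the immediate early class, stood at 5.07, 3.83 and 3.24 CPM in untreated WT and 3.42, 4.10 and 3.83 with LPS. In KO it went from 4.11, 4.59 and 3.62 to 36.1, 35.8 and 35.9, a response of 3.13 ± 0.10 against -0.11 ± 0.19.
Myc, a growth-promoting factor, fell in WT from 30.3, 27.5 and 27.7 CPM to 13.8, 14.8 and 16.1 and rose in KO from 15.3, 16.8 and 17.7 to 58.4, 61.6 and 64.8. The order of the genotypes was reversed by LPS, with a genotype difference of 2.82 ± 0.11. The helix-loop-helix inhibitor Id3 (2.66 ± 0.05 in KO, 0.97 ± 0.05 in WT) and Rasgef1b, a Ras exchange factor gene (2.27 ± 0.05 and 0.15 ± 0.05), rose more in KO too.
Over the 22 immediate early genes, which need no new protein, 11 had a lower and 8 a higher response, against 23.5% and 27% of all tested genes (8 and 11 with total counts). Atf3, a repressor induced by stress, was lost (1.77 ± 0.05 in WT, 0.11 ± 0.05 in KO). The MAP kinase phosphatase gene Dusp1 (-2.28 ± 0.07) and Ier2 (-1.70 ± 0.08) were blunted.

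Most cell cycle genes, active in dividing cells, fell less in KO. All 30 tested genes of DNA replication and the G1/S step and all 22 of mitosis fell in KO, by medians of -1.10 and -0.83, against -2.65 and -2.27 in WT. A higher genotype difference was called for 25 of the 30 and 19 of the 22, against 27% of all tested genes, and lower for 1 in each list. In untreated cells 21 of the 22 mitotic genes and 8 of the 30 G1/S genes were already higher in KO, against 5.97% of all tested genes. Of the G1/S genes 22 were blunted, 3 lost (E2f1, E2f2 and Ung) and 2 kept.
Ung, a uracil glycosylase of DNA repair (chromosome 5, 114130386 to 114139323), fell from 19.8, 20.4 and 19.7 CPM to 0.366, 0.117 and 0.451 in WT and from 19.1, 17.0 and 18.0 to 7.16, 8.28 and 8.33 in KO. The untreated groups lay close together (-0.15 ± 0.08, adjusted p = 0.28) and the groups with LPS were far apart (4.74 ± 0.30, adjusted p = 7.4e-20). Mcm2, a subunit of the replicative helicase, fell from 90.1, 92.1 and 85.4 CPM to 8.42, 8.09 and 7.78 in WT, and from 86.3, 88.4 and 90.8 to 44.5, 43.3 and 41.0 in KO.
Rrm2 (3.12 ± 0.09), which makes deoxynucleotides, Uhrf1 (2.99 ± 0.11), which maintains DNA methylation, and the cyclin Ccna2 (2.81 ± 0.12) were blunted in the same way. Among the mitotic genes Cdc20, an activator of the anaphase ligase, was lost (-2.45 ± 0.08 in WT, -0.20 ± 0.05 in KO) and the kinase Aurkb blunted (2.30 ± 0.14). The lowered blunted genes with the largest differences were Cdca7 (4.65 ± 0.32), Exo1 (4.08 ± 0.38), Ccne2 (3.88 ± 0.25), Dtl (3.79 ± 0.30) and Neil3 (3.71 ± 0.30), of which Exo1, a repair exonuclease, and the cyclin Ccne2 are members of the G1/S list. In the promoter windows an E2F motif (TTTNGCGC) stood in 3.96% for lowered blunted genes, 2.1% for lost, 3.05% for kept and 2.38% for tested genes.

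Among genes not on the cell cycle lists, the lowered genes with the largest lost responses were the Ras activator Rasgrp3 (-5.29 ± 0.14 in WT, -0.76 ± 0.06 in KO), the transcription factor Nfatc2 (-5.40 ± 0.19 and -1.02 ± 0.08), the potassium channel Kcnk13 (-4.15 ± 0.11 and -0.11 ± 0.06) and the GTPase regulator Arhgap19 (-4.75 ± 0.14 and -0.83 ± 0.07). Kcnk13 held 57.1, 53.7 and 54.3 CPM in untreated KO and 50.4, 50.1 and 52.6 with LPS, while WT dropped to 2.56, 2.58 and 3.38.
Among the 16 macrophage markers 5 had a lower and 3 a higher genotype difference, near the shares over all tested genes (23.5% and 27%), and 2 and 11 with total counts. Cx3cr1, the fractalkine receptor, fell to 20.5, 16.6 and 18.0 CPM in WT from 188, 189 and 191 and only to 88.8, 81.3 and 80.4 in KO from 131, 136 and 140. Fcgr1, a receptor for IgG that interferon induces, rose in WT (1.91 ± 0.05) and fell in KO (-0.77 ± 0.06). Kept lowered genes included Mxd3, Sox4, Ighm and Zcchc24, whose intervals all included values beyond 0.5. Txnip, which restrains glucose uptake, was the only lowered gene with a stronger fall in KO (-0.28 ± 0.07), and this turned to 0.23 with total counts.

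Most genes of sterol synthesis fell in WT and many rose in KO. Of the 23 tested, 17 fell and 2 rose in WT, while 3 fell and 11 rose in KO. The genotype difference was higher for 20 of the 23, against 27% of all tested genes, and lower for 0. Both other scalings also gave 0 lower, with 22 and 20 higher. Their median response was -0.67 in WT and 0.18 in KO, and 9 of the 10 that fell 2-fold in WT were lost. Sqle, squalene epoxidase, went from 47.2, 46.1 and 48.8 CPM to 14.8, 15 and 12.9 in WT and from 39.8, 38.2 and 39.7 up to 48.3, 49.0 and 49.2 in KO. Msmo1 (2.04 ± 0.08) and the sterol carrier Stard4 (2.08 ± 0.17) had a higher response.
Among the 9 tested LXR targets the cholesterol exporter Abca1 was lost (2.53 ± 0.06 in WT, 0.50 ± 0.06 in KO), while the receptor gene Nr1h3 rose more in KO (1.67 ± 0.08 against 0.51 ± 0.08). In all, 5 of them were lower and 2 higher, against 23.5% and 27% of all tested genes, and 2 lower and 5 higher with total counts.

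Metabolic and stress lists were mixed, where 27% of all tested genes were higher and 23.5% lower. Of 18 tested glycolysis gene entries (Aldoa has 2 identifiers) 8 were lower and 2 higher, and with total counts 5 and 11. Pfkfb3, which raises the flux activator of glycolysis, reached 317, 340 and 303 CPM in WT and 18.0, 17.2 and 18.8 in KO (-3.91 ± 0.16). Hif1a (-1.40 ± 0.07) and the hexokinase Hk2 (-1.52 ± 0.08) were blunted.
Of the 13 NRF2 genes, which answer oxidative stress, 6 were higher and 1 lower, 13 and 0 with total counts and 4 and 4 with the relative log expression factors. Hmox1, haem oxygenase, rose to 434, 478 and 454 CPM in WT and to 748, 711 and 768 in KO from a lower start of 170, 170 and 164 (1.45 ± 0.06). Gclm (1.46 ± 0.06) and Srxn1 (1.25 ± 0.09) rose more in KO, and the sister gene Gclc fell in WT (-0.54 ± 0.10) and rose in KO (0.58 ± 0.08).
The 20 lysosomal genes had 6 higher and 4 lower, again near the shares over all tested genes (18 and 1 with total counts). Tfeb, a regulator of lysosome genes, was lost (-2.61 ± 0.13 in WT, -0.12 ± 0.07 in KO), and the acid lipase Lipa blunted (0.81 ± 0.06).

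Summed markers of several other cell types moved with LPS in WT, all given here as the range of CPM of all counts over 3 libraries. For fibroblasts the sum was 5.09 to 5.83 untreated and 40.3 to 43.5 with LPS in WT, and 4.24 to 4.82 and 10.5 to 12.9 in KO. Most of this was Pdgfrb, at 35.2 to 37.3 with LPS in WT on the same scale. For endothelial cells it was 11.7 to 13.8 untreated and 54.9 to 57.3 with LPS in WT, and 8.32 to 10.0 and 5.52 to 7.15 in KO, mostly Kdr (52.4 to 54.8 with LPS in WT).
For neutrophils it was 9.96 to 13.1 untreated and 20.4 to 21.2 with LPS in WT, and 9.41 to 12.4 and 12.1 to 14.4 in KO, with Ly6g and Elane at 0 in all WT libraries. Of the 5 tested markers on that list 3 had a lower genotype difference, and 1 induced marker was kept. S100a8, a calprotectin subunit, was blunted (log2 response 2.02 ± 0.13 in WT, 0.57 ± 0.16 in KO). The granule protein gene Ngp was lost (1.33 ± 0.40 and -0.56 ± 0.48), on 9, 13 and 10 counts with LPS in WT and 4, 4 and 5 in KO. Camp, also on the list, lay at 0.0807 to 0.607 untreated and 1.56 to 2.35 with LPS in WT. In KO it lay at 0.163 to 0.278 and 2.13 to 2.64. For dendritic cells the sum was 0.282 to 0.867 untreated and 1.64 to 2.6 with LPS in WT, and 0.0816 to 1.54 and 0.867 to 1.45 in KO. For B cells it was 2.5 to 2.77 untreated and 1.1 to 1.82 with LPS in WT, and 2.77 to 4.16 and 1.73 to 2.44 in KO. The T and NK cell markers stayed at or under 1.3 in all 4 groups. Whether these counts come from other cells was not tested. Of the 6 tested red cell markers 5 had a lower genotype difference, against 23.5% of all tested genes, and 0 with total counts.

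The classes were then read in libraries that the genotype difference did not use. KO was compared with WT after LPS for 2 h and after lipoteichoic acid (LTA, a Gram-positive ligand of TLR2, 100 ng/mL) for 6 h. The 6 libraries of LPS at 2 h stand apart. The 2 h libraries held 1334784 to 2658329 counts. Those of LPS at 2 h had 0 counts of Hbb-bs, a haemoglobin gene at 2100 to 3010 CPM of all counts in the 12 libraries above, and 43.6 to 62.2 CPM of the liver gene Alb, which had 0 counts in those 12. Both genotypes at 2 h shared these features, and the protocol in the labels names a harvest at 6 h only.

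At 2 h of LPS, the induced genes later blunted, kept or stronger were more often called higher in KO than all tested genes. Of the 910 blunted induced genes 476 were higher (52.3%) and 35 lower, against 9.11% and 7.24% of all tested genes. For the 906 lost genes 55 were higher (6.07%) and 114 lower (12.6%), and for the 411 kept genes 94 were higher (22.9%) and 12 lower. Of the 36 stronger genes 21 were higher and 4 lower. The 1304 lowered blunted genes had 392 lower (30.1%) and 1 higher. The blunted induced genes thus lay above WT at 2 h more often than below it, while at 6 h their response is smaller in KO by definition. The median KO minus WT log2 difference at 2 h was 0.46 for blunted and 0.57 for kept induced genes. For lowered genes it was -0.42 and -0.51. Kept induced genes had a median level of 0.61 log2 CPM, against 5.12 for blunted, and the 2 h libraries were shallow. The shares called therefore do not show that the early excess was particular to the blunted class.
At that time Nos2 held 6.76, 2.28 and 3.37 CPM in the WT libraries and 25.5, 29.0 and 37.8 in the KO libraries (2.95 ± 0.24). Cxcl3 stood at 333, 311 and 367 CPM against 1576, 1423 and 1506 (2.15 ± 0.05). Of the 21 NF-kB subunits and inhibitors 16 were higher in KO and 3 lower. The early NF-kB cytokines and chemokines, 17 genes, had 5 higher and 8 lower. Among the 22 immediate early genes 3 were higher and 13 lower.
Other genes were already lower at 2 h. Cxcl10 held 1198, 1120 and 1217 CPM in WT and 223, 226 and 219 in KO (-2.40 ± 0.05), and 24 of the 44 interferon-stimulated genes were lower. Dusp1 (-2.50 on the log2 scale) and Zfp36 (-1.51) were lower as well. Tnfsf9, stronger at 6 h, was lower at 2 h, with 390, 456 and 441 CPM in WT and 63.7, 61.1 and 77.7 in KO (-2.68 ± 0.07). Il6 did not differ by a called amount at 2 h (0.12 ± 0.09).

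With LTA for 6 h, KO was again lower for the genes that lost their LPS response. Of the 906 lost induced genes 796 were lower than in WT (87.9%) and 5 higher, and of the 910 blunted 882 were lower (96.9%), against 28% and 30.5% of all tested genes. Of the kept genes 291 of 411 were lower (70.8%). Among the stronger genes 10 of 36 were higher and 16 lower. The lowered classes went the other way, with 675 of 800 lost (84.4%) and 1238 of 1304 blunted (94.9%) higher in KO.
The LTA responses share their untreated libraries with those to LPS, so only the values are set side by side. Cxcl10 rose with LTA by 6.18 ± 0.05 in WT and 1.44 ± 0.04 in KO, and Il6 by 9.45 ± 0.07 and 4.63 ± 0.07. Tnf rose by 6.14 ± 0.05 and 5.27 ± 0.05, and Tnfsf9 by 2.09 ± 0.06 and 3.96 ± 0.06. Myc fell by 1.32 ± 0.09 in WT and rose by 1.49 ± 0.07 in KO. Ung changed by -4.97 ± 0.19 and -0.95 ± 0.10.

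**Figure D5:**
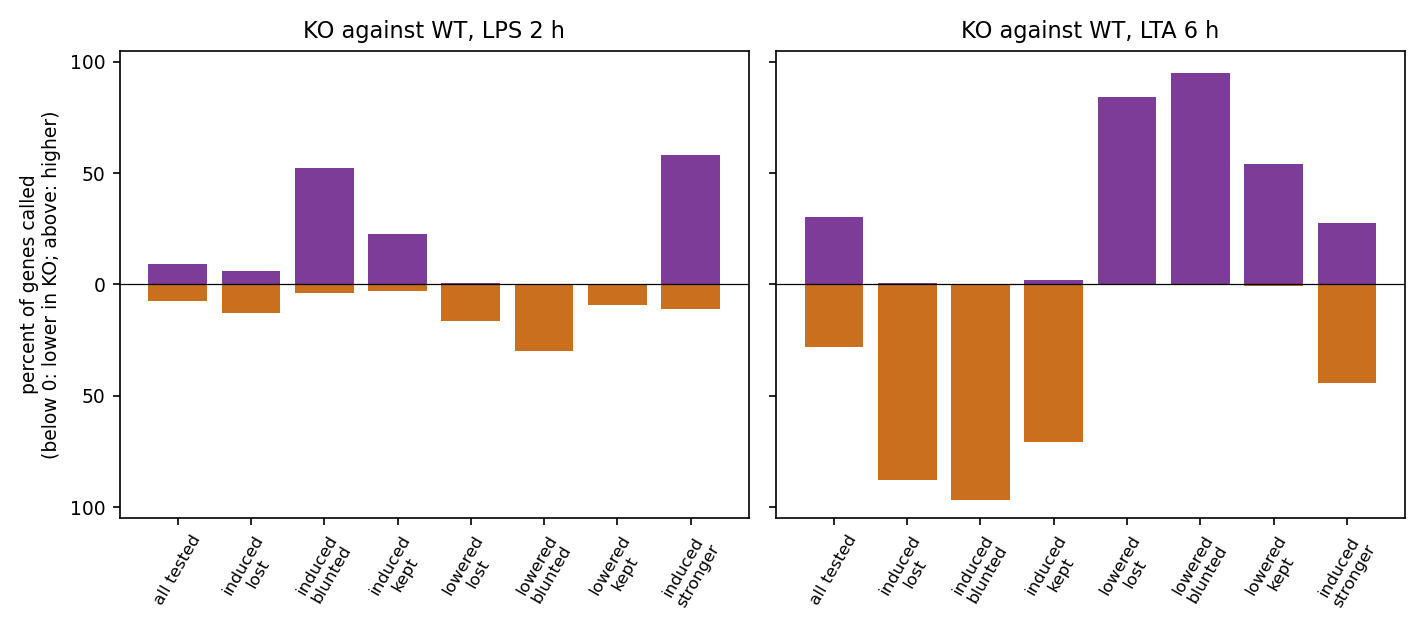
Share of genes called higher (above 0) or lower (below 0) in KO than in WT (vertical axis, percent) at LPS 2 h (left) and LTA 6 h (right), for all tested genes and by class of the LPS 6 h response. At 2 h 52.3% of the induced blunted and 22.9% of the induced kept genes are called higher in KO. With LTA at 6 h 96.9% and 70.8% of them are called lower.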

How the data were processed

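Estimated counts per gene, 1 column per library, were deposited by the authors for 32361 gene identifiers in 30 libraries. Per the submitters' processing notes the tools were fastp 0.24.0, STAR 2.7.11, SAMtools 1.22.1 and featureCounts of Subread 2.1.1, on GRCm38 (mm10). The sources used here do not give their roles, the strand setting or the annotation release. Per the labels, libraries were prepared and sequenced by a service provider from total RNA. Among values above 0, 25.2% carried a fraction, so counts were rounded. GENCODE M21 named 26314 identifiers.

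edgeR 4.0.16 (R 4.3.3) fitted 1 coefficient per group over all 30 libraries, with TMM factors, filterByExpr (minimum count 10, total 15), robust quasi-likelihood F tests, 20 residual degrees of freedom and Benjamini-Hochberg adjustment per contrast at 0.05. Standard errors are the log2 fold change divided by the square root of F. In simulated counts of 14903 genes, 100 genes were changed by 0.5 on the log2 scale and 100 by 1. The genotype difference was called for 67% and 92% of them, and for 0.068% of the 14703 unchanged genes. The changed genes were drawn from those above a set level in all 4 groups, and all genes had the same spread. Few genes changed there, while 50.5% were called in the data, so these rates need not hold for the reported fit. The smallest depth-limited level, 3 counts, was 0.222 to 0.282 CPM in the 12 libraries and 1.13 to 2.25 CPM at 2 h.

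Genes named are the 5 with the largest genotype difference per class (for kept genes, the largest WT response) among genes whose mean log2 CPM reached 2, 4 per gene list and a preset set. Members given only by class (Cd83, Cd86, Csf2, Cxcl9, E2f1, E2f2, Fas, Gbp5, Gbp6, Gbp8, Icosl, Ifit2, Il19, Irf9, Isg20, Lif, Nfkbid, Nfkbiz, Oasl1), Tlr4, Ticam1, Camp and the genes of the position windows were named after their values were seen. Members and lists were chosen with earlier results of these data known. Alternatives were DESeq2 1.42.0, the 12 libraries alone, no low-count filter, other scalings, a replicate block, other class limits and leaving out each library. LTA 2 h libraries entered the fit and are not described. Results for some genes are not reported here.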

Additional observations from a re-analysis of the deposited data

Results flagged for a closer look

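The response to 6 h of LPS differed between the genotypes by the test of the difference itself for 4082 genes that were higher in KO and 3559 that were lower (edgeR). Among the genes named above, 16 changed by a called amount in both genotypes but in opposite directions. Of these, 13 rose in WT and fell in KO. Their genotype differences on the log2 scale were -2.79 for Irf7, -4.47 for Il15, -3.25 for Tap1, -2.25 for Psmb9, -3.40 for Ifi204, -2.67 for Fcgr1, -3.56 for Kdr, -5.34 for Oasl1, -5.23 for Ifit2, -4.12 for Tgtp1, -3.47 for Mndal, -2.58 for Irgm1 and -1.65 for Trim34a. The fall of Irgm1 in KO (-0.12 ± 0.05) just passed the test (edgeR adjusted p = 0.044). The other 3 fell in WT and rose in KO, with 2.82 for Myc, 2.05 for Sqle and 1.12 for Gclc. In KO, Irf7, Il15 and Tap1 lay lower in all 3 libraries with LPS than in any untreated one, and Myc and Sqle lay higher.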

How the results depend on the processing

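Of 336 values of 16 counts under the alternatives 300 lay within 1.5 times the reported count. Scaled by total counts, the genotype difference was higher for 8452 and lower for 1647 genes. Induced genes then had 489 lost, 426 blunted and 74 stronger, and lowered genes 1823 lost and 2908 blunted. With that scaling 441 induced lost genes were lower in KO with LTA, 211 induced blunted genes higher at LPS 2 h and 758 lowered blunted genes lower there. It turned the sign for Spi1 (0.07), Nfkbia (0.38), Txnip (0.23), Ticam1 (0.39) and Cxcl2 (0.28). Unresolved genes numbered 301 in the 12 libraries alone, 746 with DESeq2 and 1321 without the low-count filter.
With no fold minimum induced genes had 1762 lost, 1523 blunted, 1301 kept and 140 stronger, and lowered genes 1812 lost, 1077 kept and 59 stronger, with 1467 unresolved. With a 4-fold minimum the induced counts were 394, 472, 224 and 15, and the lowered ones 268 lost, 547 blunted and 78 kept, with 94 unresolved. With a retained share of 0.5 as the limit, 1383 induced genes were lost and 433 blunted, and 1881 lowered genes lost and 223 blunted. Counting as lost those without a called KO response gave 506 lowered lost genes.
Leaving out each of the 12 libraries gave 3548 to 4058 higher and 3331 to 3786 lower genes, where leaving out a WT library with LPS put the lower genes ahead, as did DESeq2 (3362 higher, 4030 lower). Induced genes ranged over 882 to 1027 lost, 851 to 930 blunted, 400 to 432 kept and 33 to 36 stronger. Lowered genes ranged over 716 to 843 lost, 1185 to 1298 blunted, 344 to 442 kept and 1 to 2 stronger. Ranges were 454 to 699 for unresolved genes, 125 to 155 for responses of KO alone and 1550 to 2148 for genes that differed between untreated groups. The cause of these shifts was not tested.
Replicate numbers are shared across groups, but deviations of same-numbered libraries correlated at -0.113 to 0.095 over 6 pairs, and of other numbers at -0.084 to 0.117, so the numbers were not taken to pair the samples. With the replicate block the genotype difference was higher for 4095 and lower for 3571 genes, and the untreated groups differed for 1304 genes against 2032 without it. Depth limits mainly the 2 h libraries and kept genes with few counts, such as Ifnb1, Lif and Csf2. The labels do not say which libraries share a mouse.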
